A study of Lotus japonicus with 14 samples.

Results

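The earliest nodule tissue of the series was compared with roots that had not met rhizobia. The comparison used 6 of the 14 libraries, chosen by their sample labels: the 4 nodule primordium libraries taken 5 days after inoculation (dai) and the 2 uninoculated root libraries. The plants were Lotus japonicus, a model legume, grown in vermiculite on a nitrogen-free nutrient solution and given their rhizobia 7 days after planting. Wild type plants were of the accession MG20 (Miyakojima), and the mutant apn1, spelled anp1 in the sample titles, is labelled Fix-. Each genotype gave 1 uninoculated root library and 2 libraries of 5 dai, formed with the Mesorhizobium loti strains MAFF303099 and TONO. Every condition was measured in 1 library. The age of the uninoculated plants and the number of plants behind a library were not given in the sources used here. The nodule tissue was excised before RNA extraction, so that tissue, inoculation and plant age cannot be told apart in this comparison. RNA was depleted of plant and gram-negative bacterial ribosomal RNA and sequenced on an Illumina instrument. Counts are from gene models of the plant.

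In a legume root, rhizobial signal molecules are perceived by receptor kinases at the epidermis, and a calcium-driven signalling pathway then switches on transcription factors of the nodulation programme. Cortical cells re-enter division and form a primordium while bacteria travel inwards along infection threads. Nitrogen fixation, and the leghaemoglobins that buffer oxygen for it, belong to a later phase. The deposited tables name their gene models by clone and contig identifiers, and 0 of 38476 identifiers matched the gene table of the assembly LjGifu_v1.2. No gene name or function is therefore attached to any model below, and markers of nodule or root cell types, the gene mutated in apn1 and lists of nodulation genes were not analysed here. An identifier such as chr4.CM0432.2470.r2.a gives the chromosome, the contig and the number of the model on it.

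The 5 dai libraries held 51189011 to 58395305 counts, and the roots held 52272951 (wild type) and 54816945 (apn1). Depth thus overlapped between primordia and roots. Models with at least 1 count numbered 35578 to 36216 in the primordia and 35858 and 35910 in the roots. Levels are given as CPM, the counts of a model scaled to a common library size. The limit set by a count of 0 (3 counts) lay between 0.0514 and 0.0586 CPM, by counting error only. The 10 most abundant models took 4.71% to 6.20% of the counts of a primordium library.

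Primordia differed from roots at 13427 of 32999 tested models, which is 40.7% (edgeR quasi-likelihood test with genotype as a block, Benjamini-Hochberg adjusted p under 0.05). Of these, 6661 models (20.2% of those tested) were higher in primordia and 6766 (20.5%) were lower. With library totals in place of TMM scaling 7448 were higher and 5961 lower, so which direction held more models depended on the scaling. The size of the change was not even in both directions. At least 2-fold changes were seen for 3641 higher and 3938 lower models, at least 16-fold changes for 362 and 167, and at least 64-fold changes for 190 and 38. These are fitted folds, which for models at 0 counts in roots depend on the prior count. With a root left out fewer models were called, 7062 without the wild type root and 6627 without the apn1 root. The p-values set the change from root against the residual of the fit. Since no condition has a replicate library, this residual holds the strain differences and any difference between genotypes in the change.

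**Figure D1:**
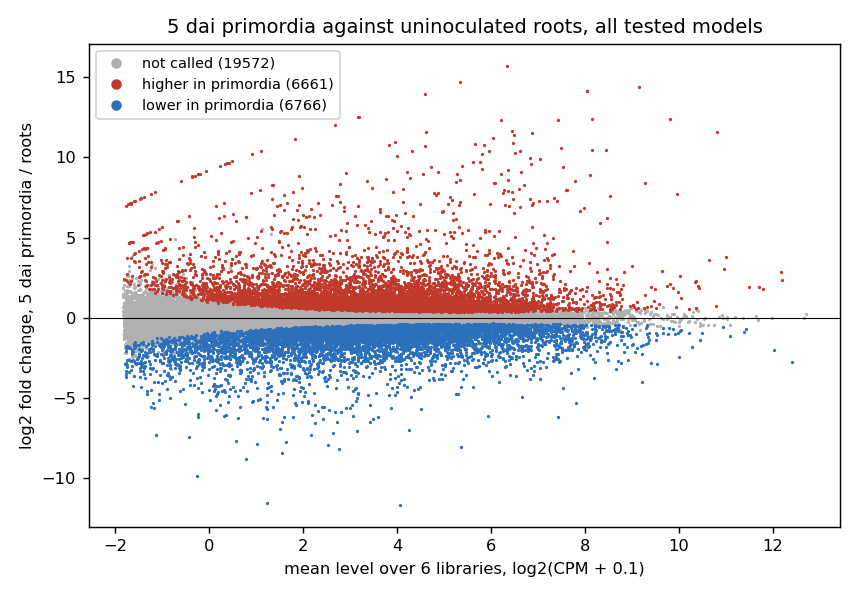
Fitted log2 fold change of 5 dai primordia over roots (vertical axis) against the mean level over the 6 libraries as log2(CPM + 0.1) (horizontal axis), with 1 point per tested gene model. The 6661 models called higher (red) reach further from 0 than the 6766 called lower (blue), and 19572 models (grey) were not called.

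In the called models the change was large beside the spread between libraries, which their choice by a test on the same libraries favours. Among the models called higher the median fitted change was 1.08 on the log2 scale, while the median range over the 4 primordium libraries was 0.43 and the median difference between the roots was 0.24. For the models called lower the corresponding values were 1.14, 0.51 and 0.22. The models that were not called had a median change of 0.29 and a median range of 0.53. Over all tested models the median change was 0.53 and the median range over the primordia 0.50, close to each other. In 6632 of the models called higher all 4 primordia lay above both roots, and in 6715 of those called lower all 4 lay below. Such separation was also seen without regard to the test in 29.9% of all tested models upward and 29.4% downward, so that the separation alone carries little information with 4 libraries against 2.

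In terms of counts, the models called higher went from 11.6% of the wild type root and 11.2% of the apn1 root to 29.5% to 31.6% of the primordium libraries. Models called lower took 40.2% and 40.7% of the root libraries and 18.1% to 19.3% of the primordia. These shares describe the models that the test had picked from the same libraries. Whether fewer cells of a type or less RNA per cell lie behind a lower level cannot be told apart in bulk tissue.

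From these, 2 models that rose and 2 that fell were followed one by one. The largest fitted rise among models with at least 10 counts in every library was that of chr3.CM0996.1250.r2.d on chromosome 3. Roots held 37 (wild type) and 42 (apn1) counts of it, or 0.743 and 0.783 CPM. In wild type primordia it stood at 5251 CPM with MAFF303099 and 2504 CPM with TONO, and in apn1 at 1593 and 1377 CPM. All 4 primordia lay far above both roots, and both apn1 values lay below both wild type values. It was 11.59 higher on the log2 scale than root (SE 0.64, edgeR adjusted p = 2.48e-05). The lower levels of apn1 did not pass the test for a difference between genotypes in the change from root (log2 difference −1.46, unadjusted p = 0.0946, edgeR adjusted p = 0.999954). At 7 dai the level was 7024 to 8365 CPM in wild type and 1410 to 1715 CPM in apn1, in libraries outside the test and scaled over all 14 libraries.

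The largest gain in level was that of chr4.CM0432.2470.r2.a on chromosome 4. It stood at 907 and 895 CPM in the wild type and apn1 roots. In primordia it stood at 5798 and 7082 CPM in wild type with MAFF303099 and TONO, and at 6245 and 7008 CPM in apn1. The 4 primordia were close to each other, with a mean of 6533 CPM (SD 619 over the 4 libraries) against a mean of 901 CPM in roots. On the log2 scale this was a rise of 2.86 (SE 0.21, edgeR adjusted p = 7.09e-05). The high level was not seen at later days. On the scale of all 14 libraries, where the roots stood at 840 and 833 CPM, at 7 dai the model was at 1050 to 2213 CPM and at 10 dai at 169 to 405 CPM, below both roots in all 4 libraries of that day. The 10 dai level was lower than the 5 dai level by a log2 difference of −4.52 (edgeR adjusted p = 2.30e-07, model of all 14 libraries).

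Of the models that fell, chr1.LjT39K06.60.r2.d on chromosome 1 had the largest fitted drop among models with at least 10 counts in every library. Roots held 6514 counts of it in wild type and 6007 in apn1, against 23 and 24 counts in wild type primordia with MAFF303099 and TONO and 30 and 25 in apn1 primordia. The mean level went from 121 CPM in roots to 0.456 CPM in primordia (SD 0.081 over the 4 libraries). The change was −8.05 on the log2 scale (SE 0.19, edgeR adjusted p = 3.68e-06). It stayed low afterwards, at 0.199 to 0.808 CPM at 7 dai and 0.0881 to 0.560 CPM at 10 dai. The largest loss in level was that of chr1.CM0113.680.r2.d, also on chromosome 1. This abundant root transcript stood at 10468 CPM in wild type roots and 14750 CPM in apn1 roots. Its primordium levels were 1658 and 2155 CPM in wild type and 1206 and 2312 CPM in apn1, with TONO above MAFF303099 in both genotypes. Primordia differed from roots by a log2 change of −2.77 (SE 0.29, edgeR adjusted p = 0.000302). Strain was not called as an effect on this model (log2 difference 0.64, edgeR adjusted p = 0.435).

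**Figure D2:**
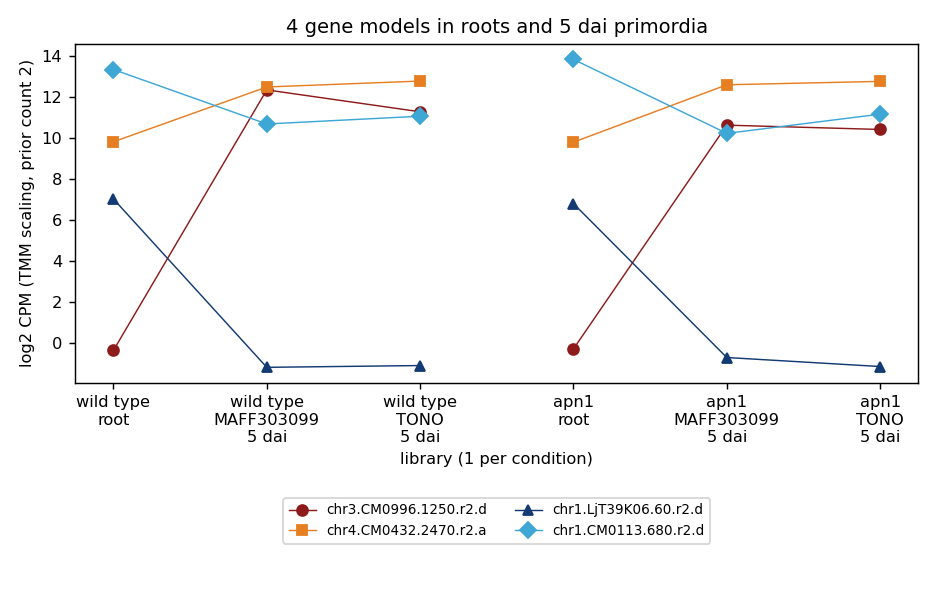
Level of the 4 followed gene models as log2 CPM (vertical axis) in each of the 6 libraries (horizontal axis), with lines joining libraries of a genotype as a guide for the eye. The models chr3.CM0996.1250.r2.d and chr4.CM0432.2470.r2.a are higher in all 4 primordia than in both roots, and chr1.LjT39K06.60.r2.d and chr1.CM0113.680.r2.d are lower.

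Levels at the top of the abundance order were partly replaced. Of the 100 most abundant models of each primordium library, 65 to 67 were among the 100 most abundant of the root of the same genotype. Among the top 100 of a primordium library 31 to 36 were called higher than root and 11 to 13 lower. The top 100 of each root held 44 models called lower and 8 called higher in primordia. Of all tested models 20.2% were called higher and 20.5% lower. The ranking used the same libraries as the test, which favours higher calls in the primordium lists and lower calls in the root lists. The 4 primordia shared 81 of their 100 most abundant models, and the 2 roots shared 92. Calls were made less often at low levels. Below a mean of 1 CPM 7.53% of tested models were called higher and 10.99% lower. Between 10 and 100 CPM the shares were 25.99% and 24.09%. Between 100 and 1000 CPM they were 21.63% and 30.16%. Low counts give less precise values, so these shares do not compare how often low and high models changed.

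Detection was then taken at a level of 1 CPM. There were 723 models under 1 CPM in both roots and at or above it in all 4 primordia, and 533 models with the converse pattern. The first set held 0.036% of the counts in each root. It held 2.35% and 1.26% in wild type primordia with MAFF303099 and TONO, and 1.78% and 1.31% in apn1. Both TONO libraries were thus below both MAFF303099 libraries for these models. Among the 723 models 112 reached 10 CPM in all 4 primordia and 17 reached 100 CPM. In the converse set 28 models had been at or above 10 CPM in both roots. This set held 0.22% and 0.198% of the root counts and 0.0215% to 0.0254% of those of the primordia. At a count of exactly 0, 30 models had 0 counts in both roots and at least 10 in all 4 primordia, and 3 models had the converse. All 723 and all 533 models passed the filter on low counts, and 632 and 485 of them were called, a description only since the sets were made from the same values.

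Each primordium library was set beside the root of its own genotype. With MAFF303099, 4629 models in wild type and 4652 in apn1 were at least 2-fold higher than in the own root, and 4881 and 4852 were at least 2-fold lower. With TONO the numbers were 4260 and 4353 higher and 4952 and 4814 lower. TONO primordia thus had fewer models 2-fold above root than MAFF303099 primordia in each genotype, while the numbers below root were close. Libraries of a genotype share their root, and these counts have no replicate check. In all 4 libraries 2270 models were at least 2-fold higher than in the own root (6.88% of those tested), and 2431 were at least 2-fold lower (7.37%). With library totals as the scaling the numbers were 2497 and 2185, so that the larger number changed sides. At a 4-fold limit there were 806 higher and 636 lower.

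The wild type and apn1 comparisons share no library, and their changes from root ran alongside each other. Over 32999 models, which are not independent replicates, the log2 folds of wild type and apn1 primordia with MAFF303099 had a Pearson correlation of 0.86 and a Spearman correlation of 0.78. With TONO in both genotypes the values were 0.84 and 0.76, and with crossed strains they were 0.81 to 0.85 and 0.74 to 0.76. Of the 4629 models 2-fold higher in wild type and the 4652 in apn1 with MAFF303099, 3125 were in both sets, 67.5% of the first and 67.2% of the second. There were 98 models 2-fold apart from root in opposite directions. The wild type and apn1 roots and primordia were each prepared and sequenced under the same protocol, which the compared folds share.

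**Figure D3:**
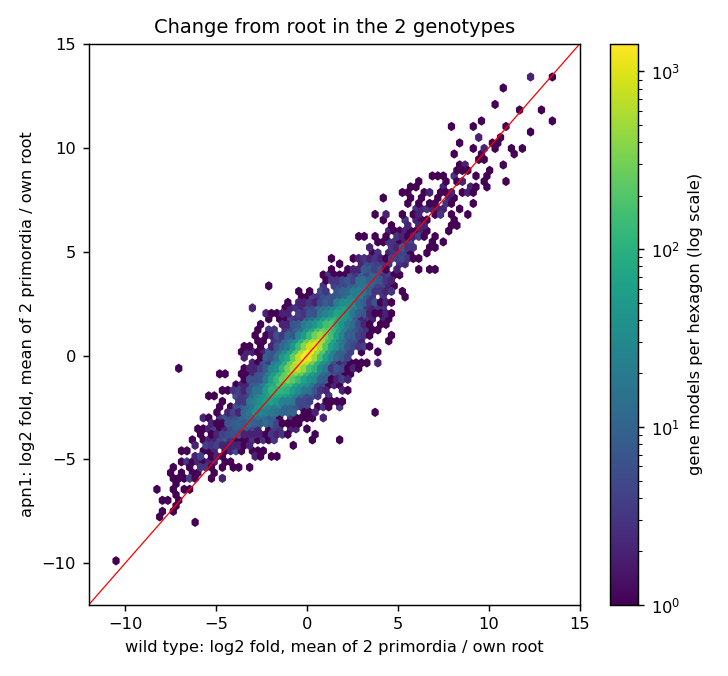
Log2 fold of the mean of both primordium libraries over the own root in apn1 (vertical axis) against that in wild type (horizontal axis), with colour giving the number of gene models per hexagon on a log scale. Most of the 32999 models lie near the red line of equal change.

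Whether the change from root differed between apn1 and wild type was tested as the interaction of genotype and tissue, with the strains of a genotype in place of replicates. No model passed (0 of 32999, 0%, edgeR). An unadjusted p under 0.05 was seen for 1029 of the 32999 models, a smaller share than 0.05. A fitted difference of at least 2-fold was seen for 3349. With limma-voom 0 models passed and with DESeq2 20. The fit rests on 2 residual degrees of freedom and 1 root per genotype, and a count of 0 does not show that the genotypes responded alike. At this age the libraries hold no tested account of the mutation apart from the line that carries it.

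TONO and MAFF303099 primordia were compared next, with genotype and tissue as further terms. The residual of this fit holds the genotype difference in the strain effect and the genotype difference in the change from root. In a fit without a root it holds only the first of these. At 5 dai 116 of 32999 models differed (0.352%, edgeR adjusted p under 0.05), 84 lower and 32 higher with TONO. Most were at least 2-fold apart, 80 of the 84 and 31 of the 32, beside 1619 of all 32999 tested models. Being called favours large differences, so these counts follow in part from the choice of models. The count depended on single libraries. It was 0 without either MAFF303099 library, 9 without the wild type TONO library, 497 without the apn1 TONO library, 922 and 913 without the wild type or the apn1 root, and 6 when the spread was taken from all 14 libraries. The 116 models therefore serve as a description of where the strains stood apart at 5 dai.

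Among models lower with TONO, chr5.CM0299.210.r2.m on chromosome 5 had the largest difference. It had 1 and 5 counts in the wild type and apn1 roots. With MAFF303099 it had 494 counts in wild type and 160 in apn1 primordia, and with TONO 13 and 21. The log2 difference between the strains was −4.18 (SE 0.59, edgeR adjusted p = 0.0400). The difference was −2.97 without the wild type MAFF303099 library, −3.36 without the wild type TONO library, −5.37 without the apn1 MAFF303099 library and −5.02 without the apn1 TONO library. By 7 dai it had 21530 to 34847 counts in all 4 libraries, TONO included. A similar course was that of chr4.CM0414.440.r2.d on chromosome 4, with 16 and 17 counts in the roots, 876 and 387 with MAFF303099 and 44 and 63 with TONO (log2 difference −3.55, SE 0.37, edgeR adjusted p = 0.0329). Its difference ran from −4.19 without the apn1 MAFF303099 library to −2.91 without the wild type MAFF303099 library. It reached 16310 to 38379 counts at 7 dai. At 5 dai both models lay nearer to root with TONO than with MAFF303099, and at 7 dai both strains had far more counts than either had at 5 dai. Against roots over both strains, the first did not pass the test (edgeR adjusted p = 0.0525) and the second did (edgeR adjusted p = 0.0454).

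Among models higher with TONO, chr2.CM0272.560.r2.d on chromosome 2 stood at 13.8 and 19.1 CPM in the roots. Its levels were 82.0 and 27.0 CPM with TONO in wild type and apn1, above the roots, and 8.26 and 6.09 CPM with MAFF303099, below them (log2 difference 2.83, SE 0.42, edgeR adjusted p = 0.0464). At 7 dai all 4 libraries were at 2.29 to 6.25 CPM. At 10 dai wild type stood at 166 CPM with both strains, and apn1 at 87.2 CPM with MAFF303099 and 28.7 CPM with TONO, above the roots in all 4 and with the strain order turned in apn1. Without the wild type TONO library the 5 dai log2 difference was 1.89, and without the apn1 TONO library 3.53. The model chr4.LjT09B12.30.r2.d on chromosome 4 had 124 and 194 counts in the roots, 107 and 110 with TONO and 18 and 20 with MAFF303099 (log2 difference 2.43, SE 0.37, edgeR adjusted p = 0.0486). At 7 dai it stood at 0.797 CPM with TONO and 1.37 CPM with MAFF303099 in wild type, and at 2.11 and 1.05 CPM in apn1. At 10 dai the levels were 20.9 and 13.9 CPM in wild type and 4.11 and 14.5 CPM in apn1. The strain order was thus turned in wild type at 7 dai and in apn1 at 10 dai. This model stayed called in 6 of 14 alternatives and missed the threshold in 8. With RLE scaling its edgeR adjusted p was 0.0520.

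The models that separated the strains were then set beside the roots, as a description, since they were chosen from the same 5 dai values. In both genotypes the TONO library was nearer than the MAFF303099 library to its own root for 56 of the 84 models lower with TONO and for 21 of the 32 higher ones, while the reverse held in both genotypes for 24 and 7. Over all 32999 tested models the first held for 30.2% and the second for 25.5%, without the choice of models that already differ by strain in both genotypes. Of the 84 models 39 were called higher than root and 3 lower, and of the 32 models 4 were called higher and 13 lower, beside 20.2% and 20.5% of all tested models. Libraries of later days were not used to choose these models. At 7 dai 60 of the 84 were still lower with TONO in wild type (median log2 difference −0.26) and 70 in apn1 (−0.47). At 10 dai 29 and 38 of the 84 were lower, with medians of 0.21 and 0.29. Of the 32 models 22 in wild type and 24 in apn1 were higher with TONO at 7 dai, with medians of 0.34 and 0.41. At 10 dai 19 of the 32 were higher with TONO in wild type (median 0.09), whereas in apn1 7 were higher and 25 lower (median −0.62). Over all tested models 49.3% and 49.9% were higher with TONO at 7 dai in wild type and apn1, and 49.2% and 52.5% at 10 dai. The median level of the 84 models was 2.16 and 1.90 on the log2 CPM scale in roots. At 5 dai it was 5.05 and 4.75 with MAFF303099 and 3.03 and 3.21 with TONO in wild type and apn1. At 7 dai it was 6.31 to 6.97 in the 4 libraries.

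**Figure D4:**
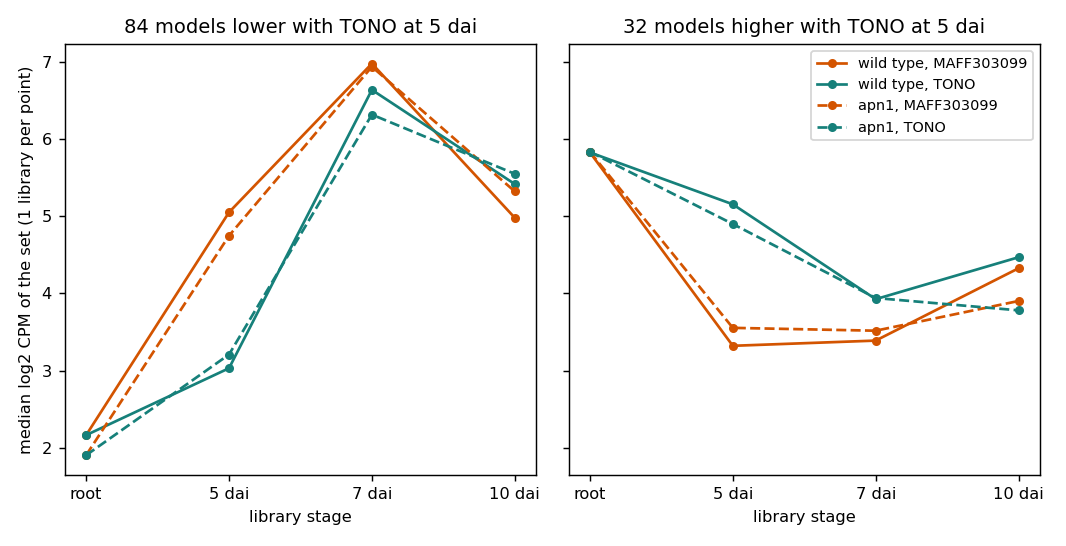
Median level as log2 CPM (vertical axis) of the 84 models lower with TONO (left) and the 32 higher with TONO (right) at 5 dai, by stage (horizontal axis), with 1 library per point. At 5 dai the MAFF303099 lines (orange) and the TONO lines (green) are apart because the models were chosen for it, and at 7 dai they lie closer.

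The 5 dai pattern was set against that of 10 dai. Both were measured against the same roots, so that the difference between them is the change from 5 to 10 dai, tested over all 14 libraries. Of 32777 models in that test 23.4% were higher and 22.2% lower at 10 than at 5 dai (edgeR adjusted p under 0.05). The 10 dai libraries held 33981124 to 37261815 counts, fewer than any 5 dai library (51189011 to 58395305), so that depth changed together with day. Among 6636 models called higher than root at 5 dai 1039 (15.66%) were higher again at 10 dai and 3070 (46.26%) were lower. Their median change from 5 to 10 dai was −0.40 on the log2 scale. Among 6702 models called lower than root at 5 dai 2285 (34.09%) were higher at 10 dai and 1014 (15.13%) lower again, with a median of 0.22. Models not called at 5 dai were higher at 10 dai in 21.93% and lower in 16.65%. The choice of models and the later change share the 5 dai libraries, so that some movement back towards root is built into these shares. With library totals in place of TMM scaling the median of all tested models moved from 0.02 to −0.28. Of the models called higher at 5 dai, 661 were then higher again and 3946 lower. Of those called lower, 1348 were higher and 1671 lower again, and their median turned from 0.22 to −0.08. The movement of the lowered models is therefore stated relative to the median of all models, above which it lay under both scalings.

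**Figure D5:**
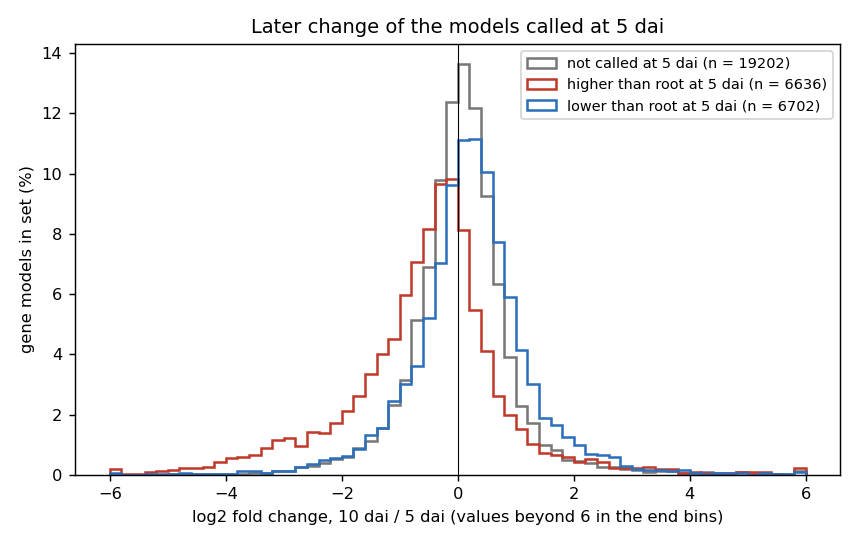
Distribution of the log2 fold change from 5 to 10 dai (horizontal axis) as a share of each set (vertical axis, percent), for models called higher than root at 5 dai (red), called lower (blue) and not called (grey). The red set has a median of −0.40 and a longer left side, and the blue set has a median of 0.22, which turns to −0.08 with library totals as the scaling.

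By position in the identifiers, calls were spread over all 6 chromosomes. The share of tested models called higher ran from 20.71% on chromosome 3 to 22.7% on chromosome 2, and the share called lower from 19.37% on chromosome 1 to 22.11% on chromosome 6. Among contigs without a chromosome, those named LjSGA had 18.51% higher and 20.34% lower, and the others, with 1084 tested models, 15.5% and 17.8%. Neighbouring models were also compared, with neighbours being tested models next to each other by number on 1 contig. Over 805 contigs with 19784 tested models there were 257 runs of at least 3 neighbours called higher and 242 runs called lower, in which 901 and 855 models lay. On these contigs 21.31% of models were called higher and 20.61% lower, and no test was made of how many runs such shares give.

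The longest runs held 8 models in each direction. On contig chr3.CM0091 of chromosome 3 the 8 models numbered 1340 to 1410 were all lower in primordia, with log2 fold changes from −5.64 to −1.11 and a median of −2.90 (largest edgeR adjusted p 0.0125). All 8 had both roots above all 4 primordia, as had 29.4% of all tested models and 6715 of the 6766 called lower. The model numbered 1380 had 1286 and 1038 counts in the wild type and apn1 roots and 16 to 37 counts in the primordia. The model numbered 1340 had 368 and 282 counts in the roots and 8 to 30 in the primordia. Of the contig's 170 tested models 41 were called lower and 31 higher. On contig chr4.CM0128 of chromosome 4 the 8 tested models numbered 60 to 170 were higher, with log2 fold changes from 0.72 to 2.19 (largest edgeR adjusted p 0.0384). The model numbered 150 had 484 and 485 counts in the roots and 1957 to 2762 in the primordia. Of this contig's 39 tested models 14 were called higher and 4 lower. Near-identical neighbouring copies can share reads, and the strand setting of the counting was not stated in the labels. The members of a run therefore need not be separate measurements, and whether they share reads was not tested.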

How the data were processed

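The 12 deposited tables each set 1 nodule library beside the root of its genotype. Per the file headers they hold original read counts and an iDEGES/DESeq normalized signal. Bowtie2 2.0.2 and DESeq are listed in the submitters' processing notes. No label or header names the genome build, annotation or counter. The deposited signal equalled the count divided by 1 factor per library and table, so it is not comparable between tables, and the counts were analysed. The copies of each root were identical over the tables, and each root was used once; 0 columns were left unmapped.

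Models with a mean of at least 10 counts after scaling to equal totals were tested with edgeR 4.0.16 (TMM scaling, quasi-likelihood test, R 4.3.3) and called where the two-sided p, after Benjamini-Hochberg adjustment, was under 0.05. The terms were genotype and tissue (3 residual degrees of freedom), the interaction of both (2), strain within primordia (2), or stage, genotype and strain over 14 libraries (8). The biological coefficient of variation was 21.5%, 22.4%, 18.3% and 22.8% in that order. Standard errors are the log2 fold change over the square root of F. The procedure was also run on simulated counts with known changes, and the share it recovered is not given here. Alternatives were other scalings and filters, DESeq2 1.42.0, limma-voom 3.58.1, other terms and each library left out. Log2 CPM used a prior count of 2, and ranges over primordia used log2(CPM + 0.1). Levels at 7 and 10 dai were scaled over 14 libraries.

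Named models were, in each direction, the called model with the largest fitted change among those with at least 10 counts in all 6 libraries and that with the largest change in mean CPM. For strain they were the 2 with the largest and 2 with the lowest difference, and for neighbours the longest run. Lists and rules were chosen with earlier results of these data known. Figures were drawn with matplotlib 3.10.9.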

Additional observations from a re-analysis of the deposited data

Results flagged for a closer look

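For 4 models the strains differed by the test of the strain term: chr2.CM0272.560.r2.d (log2 difference of TONO minus MAFF303099 2.83), chr4.LjT09B12.30.r2.d (2.43), chr5.CM0299.210.r2.m (−4.18) and chr4.CM0414.440.r2.d (−3.55). These 4 were named as the extremes of the 116 models called by that same test, so passing it was fixed by their choice. The change from root also differed between 5 and 10 dai, by the test of 10 against 5 dai over 14 libraries, for 6 of the 8 named models. Of all 32777 models in that test 23.4% were higher and 22.2% lower at 10 dai. The 8 models were chosen by their 5 dai values, which enter this test. The log2 differences of 10 minus 5 dai were −4.52 for chr4.CM0432.2470.r2.a, 1.04 for chr1.CM0113.680.r2.d, 2.39 for chr2.CM0272.560.r2.d, 3.90 for chr4.LjT09B12.30.r2.d, 7.90 for chr5.CM0299.210.r2.m and 7.92 for chr4.CM0414.440.r2.d. The edgeR adjusted p-values, in the same sequence, were 2.30e-07, 0.00142, 0.01002, 0.000254, 1.61e-05 and 2.39e-06. In 19 sets of values over the 4 primordium libraries, 0 held a library that stood apart by Dixon's criterion.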

How the results depend on the processing

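All 4 models named for primordia against roots stayed called in the same direction under each of the 16 alternatives run for them. The count of differing models stayed within 1.5 times of the reported one under every alternative but those without a root. With each library left out in turn it ran from 6627 to 13822, with 3071 to 6739 higher and 3556 to 7083 lower. The interaction count was 0 under every alternative run except DESeq2, with 20, and without a root it could not be fitted. The strain count was 290 with no filter on low counts, 77 with a mean of at least 50, 682 with DESeq2, 205 with limma-voom and 6 with the spread of 14 libraries, and 0 to 922 with each library left out. Its 4 named models missed the threshold in 4 to 8 of 14 alternatives, and none changed direction. Their log2 differences ran over 1.89 to 3.53, 2.16 to 2.68, −5.37 to −2.97 and −4.19 to −2.91 under these alternatives, in the order chr2.CM0272.560.r2.d, chr4.LjT09B12.30.r2.d, chr5.CM0299.210.r2.m and chr4.CM0414.440.r2.d. The cause was not tested. Models past the fold limit in all 4 primordia numbered 806 higher and 636 lower at 4-fold and 4240 and 4567 at 1.5-fold. With library totals 661 models rose again by 10 dai, 1671 fell again and 1348 fallen ones rose. Runs of at least 4 numbered 85 higher and 80 lower, and runs of called models changed at least 2-fold 90 and 95. Replicates could not be paired between conditions, because each condition has 1 library and the labels carry no replicate numbers. Genotype entered the fits as a term, and the folds per library used the root of the same genotype.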

Other observations

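No model was called in the comparison of the response between genotypes. Of the 10 models with the smallest unadjusted p, 3 were on contig chr3.CM0711 of chromosome 3, numbered 30, 50 and 60, and were noticed after their values were seen. Model 60 had 1095 counts in wild type and 364 in apn1 roots, 27 and 30 in wild type primordia and 76 and 106 in apn1 primordia (log2 difference of the change 3.37, unadjusted p = 0.000108, edgeR adjusted p = 0.999954). Model 50 had 2339 and 774 counts in the roots, 101 and 121 in wild type primordia and 209 and 290 in apn1 primordia. Model 30 had 789 and 239 counts in the roots, 94 and 121 in wild type primordia and 196 and 213 in apn1 primordia. All 3 had fewer counts in apn1 than in wild type roots and more in apn1 than in wild type primordia. The model LjSGA_008922.2, also among the 10, had 84 and 9 counts in the wild type and apn1 roots, 3340 and 3941 in wild type primordia and 2732 and 2747 in apn1 primordia, so that it was lower in apn1 in both tissues. Each root is 1 library, and how far a difference between the roots carries these values was not tested.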
